A study of Mus musculus with 168 samples.

Results

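The microRNAs described here are 5 of the 1626 transcripts in the count table, the vessel microRNAs Mir126a and Mir143 and the red-cell microRNAs Mir451a, Mir144 and Mir486. Members were taken by gene name in the annotation of genome build GRCm38, by a rule that names the genes and sets no threshold on a measured value. Each of the 5 passed the filter on low counts in every fit. Small RNA of the cortex was sequenced in 168 mice, 8 for each of 7 genotypes at 2, 6 and 10 months of age.

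All mice were on a C57BL/6 background and carried at least 1 endogenous mouse Htt allele. The Q20 (Htt tm2Mem), Q80 (Htt tm1.1Pfs), Q92 (Htt tm4Mem), Q111 (Htt tm5Mem), Q140 (Htt tm1Mfc) and Q175 mice were heterozygous knock-ins whose other allele held human HTT exon 1 with the named number of CAG repeats, and the 24 wild type (WT) mice were littermates of the Q20 line with a CAG length of 7. Q175 arose from the Q140 allele by spontaneous expansion, so those lines share an allele. Every genotype and age had 4 female and 4 male mice by the sex of the cage, which was used, and in 2 libraries the sex on the label differed from it. The study's methods name no WT mice of 6 months, so the 8 libraries of that group entered no test and are shown apart.

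MicroRNAs are short RNAs cut from hairpin precursors, and the seed of the mature strand directs it to matching messenger RNAs. Mir126a is made with its host gene Egfl7 in the endothelial cells that line vessels, where it acts in vascular growth and integrity, and Mir143 is made in vascular smooth muscle cells and pericytes and supports their contractile state. Mir144 and Mir451a come from a single precursor RNA that GATA1 switches on in developing red cells, Mir486 is made with Ank1 in red cells and muscle, and Mir451a and Mir486 are abundant in circulating red cells. In bulk tissue, fewer cells of a type and less RNA per cell cannot be told apart, and the sources used here do not say whether blood was washed out of the tissue.

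The mature sequences are shown because the members are known by them and because they show which members share a seed. RefSeq on build GRCm38.p6 gave mature sequences for 3 of the members, and capitals mark the seed, bases 2 to 8 from the 5′ end.
miR-126a-3p: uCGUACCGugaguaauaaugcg
miR-144-5p: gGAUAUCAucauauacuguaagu
miR-144-3p: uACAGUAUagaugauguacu
miR-451a: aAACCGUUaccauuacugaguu
The 4 seeds are all different, and each belongs to 1 mature sequence of the RefSeq table. The neighbours Mir144 and Mir451a therefore share a precursor but no seed.

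Mir126a (transcript ENSMUST00000083606) lies on the plus strand of chromosome 2 from 26591357 to 26591429, inside Egfl7 and over an annotated exon of it. Mir143 (ENSMUST00000083511) lies on the minus strand of chromosome 18 from 61649196 to 61649258, outside any other annotated gene. Mir144 (ENSMUST00000083467) and Mir451a (ENSMUST00000093557) are on the plus strand of chromosome 11, from 78073005 to 78073070 and from 78073170 to 78073241, with 99 bases between them. Mir486 (ENSMUST00000093576) lies on the plus strand of chromosome 8 from 23142555 to 23142682 in an intron of Ank1. Mir3107, annotated on the opposite strand of the Mir486 site, is known to give a mature microRNA with the same letters, so the count of Mir486 is uncertain as to its strand of origin.

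A library held 2041741 to 11646287 counts with a median of 4810487, and the 5 members took 1.76% to 5.2% of them. Raw counts per library ran from 77 to 474 for Mir144, 515 to 2197 for Mir451a, 5174 to 49634 for Mir486, 14780 to 131142 for Mir126a and 20624 to 253119 for Mir143. Levels are given as CPM, read counts scaled to a common library size, the TMM-scaled library total. Where ranges of a member are said not to overlap, the share of all transcripts without overlap was not counted. The 10 measured microRNAs of the cortex neuron list (Mir124a, Mir9, Mir128, Mir132 and Mir138 genes) summed to 92273 to 138965 CPM, so neuronal microRNAs were present at a high level in every library. The L number is the number after the letter L in a library label. There were 6 such numbers at 2 months and 3 at 10 months, and only L number 7 occurs at both. What the L number stands for is not given in the sources used here. Age and library set can therefore not be told apart, within L number 7 either. The libraries of 6 months other than WT have labels of another form than all those of 2 and 10 months. Differences of 6 months from the other ages were therefore not tested, and age and library set cannot be told apart in them.

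Some libraries stood apart from the rest of their age, and this was seen after the data were examined. At 2 months the 9 libraries with the highest library numbers, 4 of L number 7 and 5 of L number 3, held Mir486 at 2244 to 2590.5 CPM (median 2451), while the other 47 held it at 2654 to 3945 CPM (median 3075). These Mir486 values did not overlap, but the boundary between the 9 and the 47 was itself set after the data were examined. The lack of overlap is therefore a description and no test. In the same 9 libraries Mir150, a lymphocyte microRNA, was at 2965 to 3697 CPM (median 3205) against 1193 to 3778 CPM (median 1579) in the other 47. Its part in the lower Mir486 was not tested. The other members overlapped between the 9 and the 47 libraries, with medians of 8265 and 8699 CPM for Mir126a, 13743 and 13047 CPM for Mir143, 236 and 266 CPM for Mir451a, and 36.8 and 36.7 CPM for Mir144.

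At 10 months the library with the lowest total, Q20 Male 2 with 2041741 counts, had the lowest Mir126a of its age (6685 CPM against 7579 to 10555 in the other 55) and the highest Mir451a (8.86 log2 CPM against 7.88 to 8.75). Its Mir143 was 9328 CPM, its Mir144 34.8 CPM and its Mir486 2340.1 CPM, all inside the range of the other 55 libraries. Results that rest on these libraries are given with and without them.

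**Figure D1:**
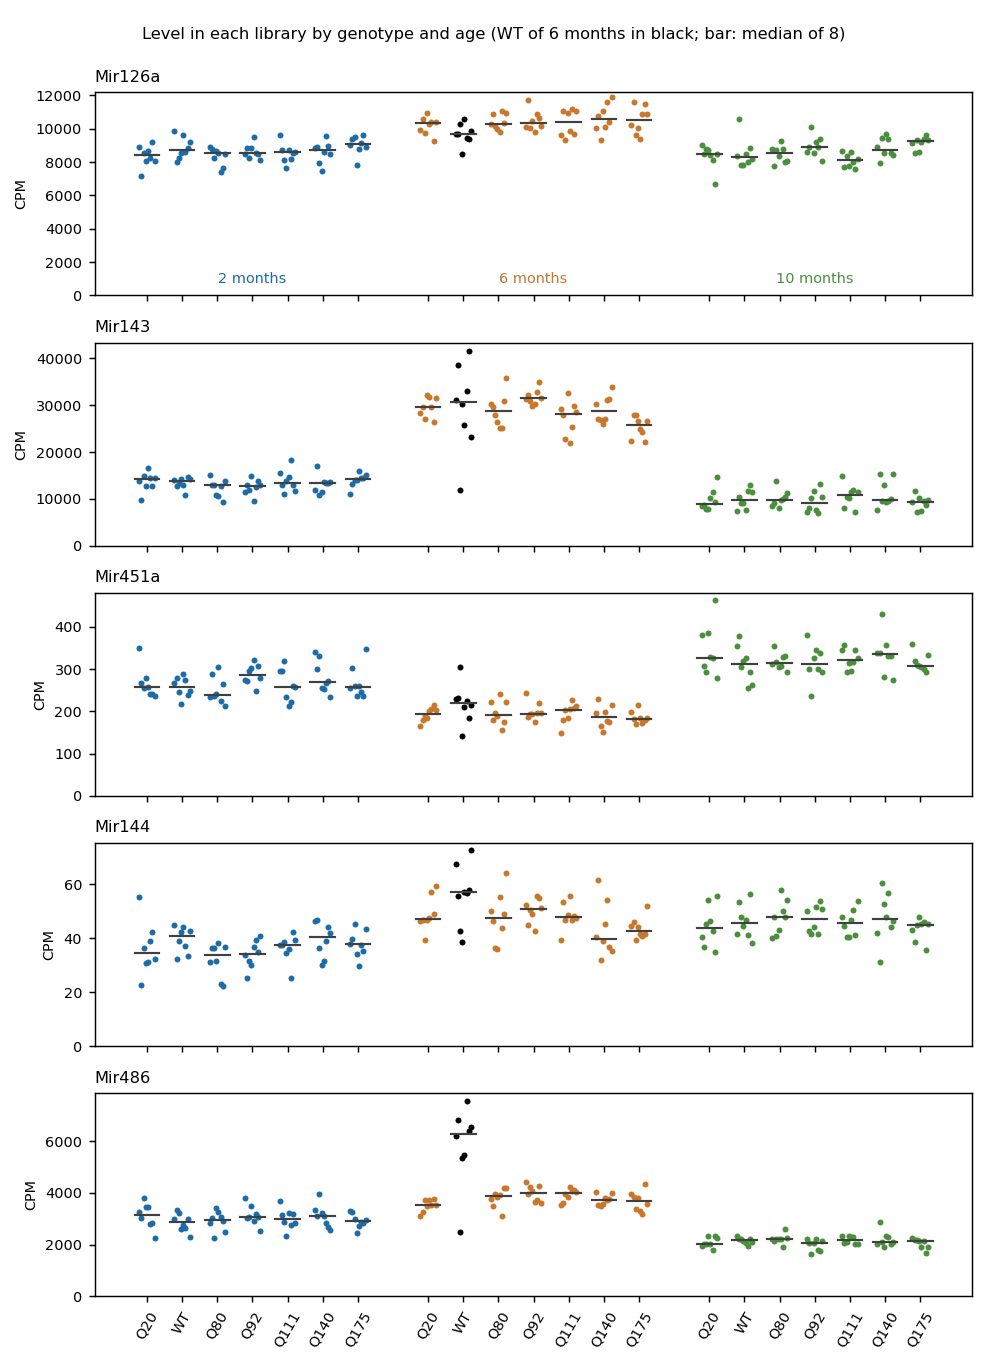
Level of each member in CPM (vertical axis, linear, from 0) in each of 168 libraries by genotype and age; points are libraries, bars the median of 8, and WT mice of 6 months are black. Within an age, and leaving out WT mice of 6 months, every pair of genotypes overlaps except Q92 and Q175 for Mir143 at 6 months, while Mir486 of the 6-month WT mice reaches 7558 CPM against at most 4433 in the other 48 libraries of that age.

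Mir126a had the smallest SD between mice of the 5 members at each age. At 2 months the lowest, median and highest of 56 libraries were 7187, 8623 and 9854 CPM, and group medians were 9072 in Q175, 8733 in WT, 8513 in Q92, 8714 in Q140, 8578 in Q111, 8403 in Q20 and 8513 CPM in Q80 mice, in the order of the mean log2 level. At 6 months the 48 libraries other than WT ran from 9268 over 10353 to 11912 CPM, with medians of 10587 in Q140, 10546 in Q175, 10314 in Q92, 10303 in Q80, 10399 in Q111 and 10345 CPM in Q20. At 10 months the range was 6685 to 10555 CPM (median 8568), with medians of 9254 in Q175, 8927 in Q92, 8744 in Q140, 8283 in WT, 8521 in Q80, 8489 in Q20 and 8095 CPM in Q111. The SD over the 8 mice of a group was 0.062 to 0.14 on the log2 scale, and all neighbours in the order differed by less than their spread at each age. The 6-month libraries lay higher than those of the other ages, a difference that was not tested. After removal of genotype and sex means, the SD of Mir126a between libraries was 0.0988, 0.0946 and 0.1039 at 2, 6 and 10 months, and 9.0%, 10.3% and 9.6% of 467 transcripts had a smaller SD.

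Mir143 varied more, and its level in the 6-month libraries was well above that of the other ages, a difference that was not tested. At 2 months the 56 libraries ran from 9380.1 over 13411 to 18323 CPM, with medians of 14200.4 in Q175, 13318 in Q111, 14151 in Q20, 13742 in WT, 13427 in Q140, 12689.5 in Q92 and 12904 CPM in Q80. At 10 months they ran from 7036 over 9782 to 15380.3 CPM, with medians of 9694 in Q140, 10908 in Q111, 9847 in Q80, 9794 in WT, 8954 in Q20, 9103 in Q92 and 9416 CPM in Q175. All neighbours in either order differed by less than their spread, and the SD in a group was 0.14 to 0.23 at 2 months and 0.23 to 0.37 at 10 months (log2). After removal of genotype and sex means, the SD of Mir143 between libraries was 0.1996, 0.1498 and 0.309 at 2, 6 and 10 months, and these were not tested against each other. Counting error alone would give an SD of 0.0066 at 10 months. The median of Mir143 at 10 months was 8579.8, 9482 and 12244 CPM in L numbers 6, 7 and 8. The part of the L number in this SD was not tested.

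At 6 months the Mir143 level was given for each genotype because a difference between genotypes passed there. Q92 mice had the lowest, median and highest values of 29777, 31512 and 35009 CPM. Q20 mice had 26473, 29615 and 32116 CPM, Q140 mice 26082, 28721 and 33786 CPM, and Q80 mice 25101, 28759 and 35849.7 CPM. Q111 mice had 22008, 28170.1 and 32587 CPM and Q175 mice 22158, 25778 and 27975 CPM. All Q92 libraries lay above all Q175 libraries, and every other pair of genotypes overlapped. Of the 5 neighbour pairs, 4 differed by less than their spread, and the exception was Q92 above Q20 by 0.11 on the log2 scale.

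Mir451a was lowest in the libraries of 6 months and highest in those of 10 months. The 56 libraries of 2 months ran from 213 over 260.2 to 349.8 CPM, with medians of 287 in Q92, 269 in Q140, 257 in Q175, 256 in Q20, 258 in Q111, 257 in WT and 239 CPM in Q80. At 6 months the 48 libraries ran from 149 over 193 to 244 CPM, with medians of 194 in Q92, 192 in Q80, 203 in Q111, 194 in Q20, 187 in Q140 and 183 CPM in Q175. At 10 months they ran from 236 CPM upwards, with an overall median of 319.7 CPM and, without the library of the lowest total, a highest value of 431 CPM, and group medians were 327 in Q20, 335 in Q140, 321 in Q111, 315 in Q80, 308 in Q175, 312 in Q92 and 312 CPM in WT. Neighbours in these orders differed by less than the spread, and the genotype means spanned 0.20, 0.11 and 0.14 log2 units at 2, 6 and 10 months, where the median SD in a group was 0.18, 0.17 and 0.19.

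Mir144, the neighbour of Mir451a, did not share its 6-month minimum. At 2 months its libraries ran from 22.3 over 36.8 to 55.1 CPM, with medians of 40.7 in WT, 40.4 in Q140, 37.8 in Q175, 37.4 in Q111, 34.4 in Q20, 34.3 in Q92 and 33.8 CPM in Q80. At 6 months they ran from 31.9 over 46.8 to 64.1 CPM, with medians of 50.8 in Q92, 47.1 in Q20, 47.9 in Q111, 47.5 in Q80, 42.8 in Q175 and 39.7 CPM in Q140. At 10 months they ran from 31.1 over 45.3 to 60.4 CPM, with medians of 47.9 in Q80, 47.2 in Q140, 47.1 in Q92, 45.5 in WT, 45.6 in Q111, 43.9 in Q20 and 45 CPM in Q175. No neighbours in these orders differed beyond their spread. Counting error matters most for this member: at its median of 200 counts at 2 months it gives an SD of 0.1021, beside a measured SD of 0.2606 (log2).

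Mir486 was highest in the libraries of 6 months and lowest in those of 10 months. The 56 libraries of 2 months ran from 2244 over 3009 to 3945 CPM, with medians of 3064 in Q92, 3150 in Q20, 3109 in Q140, 2996 in Q111, 2934 in Q175, 2958 in Q80 and 2870 CPM in WT. At 6 months the 48 libraries ran from 3104 over 3771 to 4433 CPM, with medians of 4017 in Q92, 3999.6 in Q111, 3870.4 in Q80, 3733 in Q140, 3677 in Q175 and 3541 CPM in Q20. At 10 months they ran from 1620.1 over 2139 to 2881 CPM, with medians of 2214 in Q80, 2098 in Q140, 2199.7 in Q111, 2185 in WT, 2025 in Q20, 2132 in Q175 and 2061 CPM in Q92. No neighbours differed beyond their spread. The whole 6-month range lay above the whole 10-month range, and the residual SD was 0.1775, 0.113 and 0.1407 (log2) at 2, 6 and 10 months.

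The WT mice of 6 months, shown apart, differed most from their age group in Mir486. All 8 have L number 3, and their labels have the form of the 2- and 10-month libraries, unlike those of the other 48. Genotype and library set can therefore not be told apart in these 8. In 7 of the 8 libraries Mir486 was 5368 to 7558 CPM, above all 48 other libraries of 6 months, and in WT Female 3 it was 2500.3 CPM, below all of them. Mir143 was 23287 to 41632 CPM in the 7 and 11866 CPM in Female 3, which is below every other 6-month library and inside the ranges of 2 and 10 months. Mir451a was 141 to 232 CPM in the 7 and 306 CPM in Female 3, above the 149 to 244 CPM of the other 48 libraries. Mir144 was 38.4 to 72.7 CPM in the 7 and 42.5 CPM in Female 3, and Mir126a 8452 to 10595 and 10274 CPM, where both overlapped the other genotypes. Of the markers of other cells, Mir150 was 612 to 695 CPM in the 7, inside the range of the other 48 libraries. In Female 3 it was 1259 CPM, above that range. Mir150 therefore did not set the 7 apart from the other 48. The 4 measured microRNAs of the liver list summed to 1171 to 3425 CPM in the 8 WT libraries. In the other 48 they summed to 1296 to 1802 CPM. The part of these markers in the Mir486 level was not tested.

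**Figure D2:**
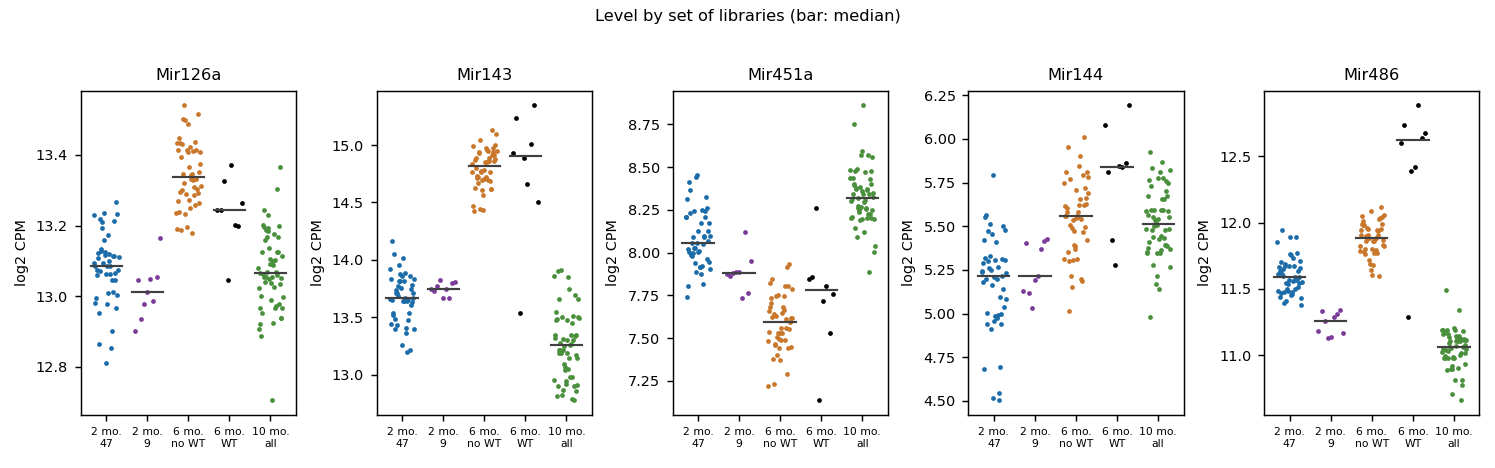
Log2 CPM of each member (vertical axis, scale differs between panels) for the 47 and the 9 libraries of 2 months, 6 months without WT, 6-month WT and 10 months; points are libraries and bars medians. The 9 libraries of 2 months lie below the other 47 in Mir486 without overlap, at a boundary set after the data were examined. Of the 8 WT libraries of 6 months, 7 lie above all others in it.

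Whether the members follow the length of the CAG repeat was the first question of the design. Association with CAG length, tested with edgeR's quasi-likelihood F test and Benjamini-Hochberg adjustment at an FDR of 0.05, passed for 0 of 5 members at each age. Over all transcripts it passed for 0% of those tested at 2 months, 7.2% at 6 months and 6.6% at 10 months, so absence of calls among 5 members sits near that background. At an unadjusted p under 0.05 there were 3 of 15 member tests. Mir143 at 6 months had -0.12 log2 units per 100 CAG (SE 0.047, adjusted p = 0.12), Mir144 at 6 months -0.14 (SE 0.064, adjusted p = 0.164), and Mir126a at 10 months 0.058 (SE 0.025, adjusted p = 0.177), all by the same edgeR test. The other 12 coefficients lay between -0.074 and 0.045, and those of Mir486 were between -0.0085 and 0.013 at the 3 ages. Without the Q175 libraries the coefficients were -0.018 for Mir143 at 6 months (edgeR adjusted p = 0.915), -0.12 for Mir144 at 6 months and 0.031 for Mir126a at 10 months. DESeq2's Wald test also called 0 of 5 members at each age, where it called 0%, 9.25% and 7.78% of transcripts. When the Z statistics of 6 and 10 months were combined, 0 of 5 members passed, where 13.4% of all transcripts did. The combined Z was 2.13 for Mir126a (unadjusted p = 0.0335), -1.66 for Mir144, -1.48 for Mir143, -1.19 for Mir451a and -0.19 for Mir486.

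Differences between any of the genotypes, tested as 1 F test over all genotype coefficients, passed for Mir143 at 6 months (edgeR adjusted p = 0.0438). This was 1 of 15 member tests, in a comparison that 7.46% of all transcripts passed. It was 0 of 5 members at 2 months, where 0% of transcripts passed, and 0 of 5 at 10 months, where 8.73% did. DESeq2 called 0, 1 and 0 members at 2, 6 and 10 months beside 0.676%, 13.1% and 13.7% of transcripts, and its call was again Mir143 (adjusted p = 0.0179). The 6-month call was lost with the library total alone as scaling (adjusted p = 0.0534), with only microRNA features (adjusted p = 0.0554) and with only libraries of code LB (adjusted p = 0.0998). The library code is LB for 37 and V for 11 of those libraries, and the V libraries belong to Q111 (4), Q175 (3), Q80 (2) and Q140 (2). Mir143 had a median of 27827 CPM in V and 29627 CPM in LB libraries, and the difference between the codes passed for 0 of 5 members, where 4.11% of transcripts passed. Without the code in the fit, the CAG association of Mir143 at 6 months passed (-0.14, adjusted p = 0.0378 by edgeR), beside 9.25% of transcripts, and so did its difference between genotypes (adjusted p = 0.0121), beside 7.71%.

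Each of the 5 mutant genotypes was also compared with control mice of its age, which were Q20 and WT at 2 and 10 months and only Q20 at 6 months, and 0 of 75 member tests passed, where 0.983% of all tests over transcripts did. The 75 differences spanned -0.24 to 0.20 on the log2 scale, and 5 had an unadjusted p under 0.05. The smallest adjusted p of edgeR was 0.0938, for Mir143 in Q175 mice of 6 months (-0.23, SE 0.077). DESeq2's Wald test called this difference (-0.24, adjusted p = 0.03). Mir486 in Q92 mice of 6 months was 0.15 above Q20 (SE 0.045, edgeR adjusted p = 0.171). For Mir126a no mutant genotype differed from its controls by more than 0.10.

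Female and male mice were compared within each age. The difference passed for 0 of 15 member tests, where 0.398% of all tests over transcripts passed (0.45%, 0.257% and 0.472% at 2, 6 and 10 months), and the 1 with an unadjusted p under 0.05 was Mir486 at 2 months (female above male by 0.13, SE 0.044, edgeR adjusted p = 0.248). Without the 9 libraries that stand apart it was 0.14 (adjusted p = 0.0556).

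With the 6-month WT libraries included, the CAG association at 6 months passed for 3 of 5 members, in a fit that 59.7% of all transcripts passed. The coefficients were -0.32 for Mir486 (edgeR adjusted p = 0.000254), -0.23 for Mir144 (adjusted p = 0.000547) and -0.17 for Mir451a (adjusted p = 0.00292). A difference between genotypes then passed for the same 3 members, beside 72.6% of all transcripts. In the CAG and genotype tests at 6 months, under the settings run, the red-cell members passed only with those 8 libraries, in which Mir486 had a median of 6291 CPM against 3541 CPM in Q20 mice. Their labels are of another form than those of the other 6-month libraries, so WT genotype and library set cannot be told apart in this fit.

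**Figure D3:**
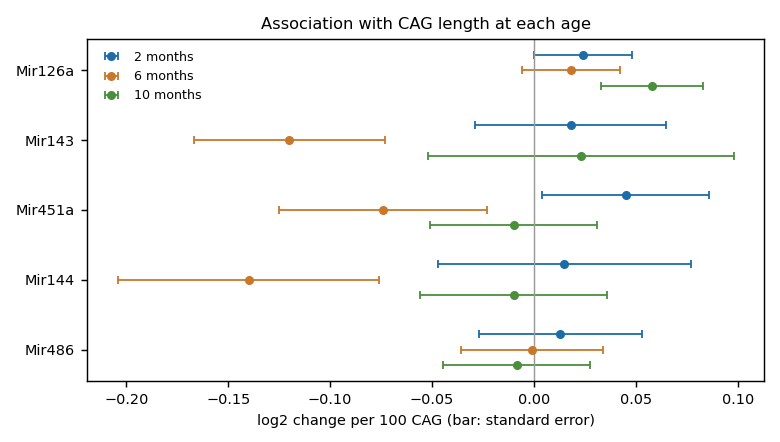
Association of each member with CAG length, as log2 change per 100 CAG (horizontal axis), at 2, 6 and 10 months; points are edgeR coefficients and bars their standard errors. The coefficients run from -0.14 to 0.058, and none passed an FDR of 0.05.

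The level of 4 members differed between 2 and 10 months. In this comparison, over all mice of both ages and 7 genotypes, 4 of 5 members and 71.5% of all transcripts passed (35.7% higher and 35.9% lower at 10 months). A share of 4 in 5 is near that background. The red-cell members did not move together: Mir144 and Mir451a were higher and Mir486 was lower at 10 months. Of the vessel members Mir143 was lower, and Mir126a did not pass.

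Mir144 was 0.33 log2 units higher at 10 months (SE 0.044, edgeR adjusted p = 1.02e-10). It was higher in 7 of 7 genotypes, by 0.19 in Q175 to 0.59 in Q80 mice. In Q80 mice the lowest, median and highest values were 22.3, 33.8 and 38.1 CPM at 2 months and 40.2, 47.9 and 57.9 CPM at 10 months, which do not overlap. In Q92 mice they were 25.4, 34.3 and 40.9 against 41.6, 47.1 and 53.9 CPM, again without overlap, and in the other 5 genotypes the ages overlapped. How many of all transcripts lack overlap in these genotypes was not counted.

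Mir451a was 0.27 higher at 10 months (SE 0.032, edgeR adjusted p = 1.42e-12), in 7 of 7 genotypes, by 0.12 in Q92 to 0.37 in Q20 mice. In Q20 mice it went from 236, 256 and 349.8 CPM (lowest, median, highest) to a lowest of 278 and a median of 327 CPM. The ages overlapped in every genotype. The difference was 0.26 without the 10-month library of the lowest total.

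Mir486 fell by 0.50 log2 units between 2 and 10 months (SE 0.029, edgeR adjusted p = 1.77e-31), in 7 of 7 genotypes, by 0.38 in Q80 to 0.66 in Q92 mice. In Q92 mice the lowest, median and highest values were 2544, 3064 and 3801 CPM at 2 months and 1620.1, 2061 and 2230.4 CPM at 10 months. In Q175 mice they were 2451, 2934 and 3288 against 1672, 2132 and 2252 CPM. The ages did not overlap in these 2 genotypes and overlapped in the other 5, and the share of all transcripts without overlap was not counted.

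Mir143 fell by 0.41 (SE 0.048, edgeR adjusted p = 8.53e-13), in 7 of 7 genotypes, by 0.27 in Q140 to 0.61 in Q175 mice. In Q175 mice it went from 11041, 14200.4 and 15916 CPM to 7234, 9416 and 11621 CPM, and the ages overlapped there as in every genotype. For Mir126a the difference was -0.0048 (SE 0.017, edgeR adjusted p = 0.826) and turned to 0.0072 with the RLE scaling. It was higher at 10 months in 4 and lower in 3 genotypes, between -0.071 in Q111 and 0.054 in Q92 mice. Only with the library total alone did Mir126a pass (-0.05, adjusted p = 0.014 by edgeR), beside 74.8% of transcripts. The median of all transcripts in this comparison was -0.035 to 0.023 over the scalings and filters.

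Across library sets the age differences kept their direction in 4 members, but the size for Mir486 followed the set. Against the 47 libraries of 2 months it was -0.57 (SE 0.026), in a fit that 72.4% of transcripts passed, and against the 9 that stand apart it was -0.18 (SE 0.05, edgeR adjusted p = 0.00173), in a fit that 43.6% of transcripts passed. Within L number 7, the only L number of both ages, with 4 libraries of 2 months and 25 of 10 months, it was -0.056 (SE 0.073, edgeR adjusted p = 0.636), where 25.2% of transcripts passed. All 4 of those 2-month libraries are among the 9 that stand apart, so these 2 sets overlap. Mir451a went the other way: 0.23, 0.43 and 0.54 in the same 3 sets, all past the threshold. Mir143 was at -0.41, -0.46 and -0.51, all past it. Mir144 was at 0.33, 0.29 and 0.37, and the last missed it (adjusted p = 0.0512). Whether the 9 libraries or the other 47 give the better 2-month level was not tested.

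Whether the age difference changes with CAG length was tested as an interaction. It passed for 0 of 5 members, where 1.3% of transcripts passed (0 of 5 beside 0.864% without the 9 libraries, and 0 of 5 beside 1.52% with DESeq2), with coefficients between -0.067 for Mir451a (SE 0.058) and 0.024 for Mir126a (SE 0.032). Within Q20 and WT mice alone, the differences between 10 and 2 months were 0.24 for Mir144, 0.31 for Mir451a, -0.48 for Mir143 and -0.50 for Mir486, each past the threshold, and -0.047 for Mir126a, in a fit that 55.1% of transcripts passed.

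**Figure D4:**
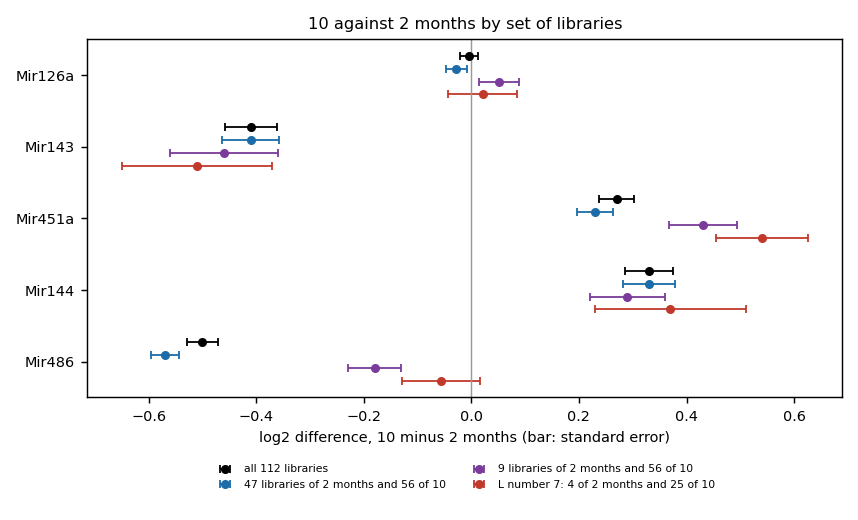
Difference between 10 and 2 months (horizontal axis, log2, 10 minus 2 months) of each member in 4 sets of libraries; points are edgeR coefficients and bars standard errors. For Mir486 the difference goes from -0.57 with the 47 libraries of 2 months to -0.056 within L number 7, while Mir451a goes from 0.23 to 0.54.

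Co-variation between libraries asked whether mice with more of a member also had more of another. Log2 CPM values were centred on the mean of genotype and sex (and library code at 6 months), and all 10 pairs were tested at each of 3 ages by permutation within these strata, 30 tests in all. The adjusted p passed 0.05 for 4 of 30 pairs. Of these 4, Mir126a with Mir144 at 2 months and Mir451a with Mir486 at 6 months also passed by Spearman's rho (adjusted p = 0.0087 for both by permutation), and the other 2 did not. The 4 were positive, and 7, 9 and 6 of the 10 correlations were positive at 2, 6 and 10 months. How many pairs among all transcripts pass or are positive was not counted, so these counts are not a trait of the members. Members share a library and a scaling factor, so a part of any correlation can come from these. Within the 9 libraries of 2 months that stand apart, values were not centred on genotype and sex. An r of the 9 can therefore hold differences between genotypes and sexes, which an r of the 47 does not.

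Mir126a and Mir144, a vessel and a red-cell member, formed the strongest pair. At 2 months Pearson r was 0.593 (permutation p = 2e-05, adjusted p = 0.0006) and Spearman rho 0.523 (permutation p = 0.00056) over 56 libraries. Without the 2 libraries farthest in Mir126a r was 0.544. It was 0.645 in the 47 libraries and, without centring on genotype and sex, 0.712 in the 9. Within L numbers 1, 2 and 3 it was 0.5178, 0.8033 and 0.6685. At 10 months r was 0.429 (permutation p = 0.00407, adjusted p = 0.0305) and rho 0.374 (permutation p = 0.0112), and 0.344 without the 2 farthest libraries. Within L numbers 6, 7 and 8 it was 0.2371, 0.5388 and 0.6601. Without the library of the lowest total r was 0.351 and the pair did not pass (permutation adjusted p = 0.0892). It did not pass with RLE scaling (r = 0.403, permutation adjusted p = 0.0562) or without centring either (r = 0.305, permutation adjusted p = 0.0893). At 6 months r was 0.276 (permutation p = 0.145, adjusted p = 0.312) over 45 libraries.

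The neighbours Mir451a and Mir144 correlated at 6 months, with r = 0.566 (permutation p = 0.00326, adjusted p = 0.0305) and rho = 0.454 (permutation p = 0.00763) over 45 libraries, and r = 0.413 without the 2 farthest. At 2 months r was 0.377 (permutation p = 0.0281, adjusted p = 0.104) over 56 libraries, and 0.534 in the 47 (adjusted p = 0.0282 by permutation) beside 0.17 in the 9. At 10 months it was 0.114 (permutation p = 0.563, adjusted p = 0.73). Over all libraries of an age, the neighbours on chromosome 11 passed at 1 of 3 ages.

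Mir451a and Mir486, the circulating red-cell members, correlated at 6 months with r = 0.55 (permutation p = 0.00193, adjusted p = 0.0289) and rho = 0.608 (permutation p = 0.00058), and r = 0.598 without the 2 farthest libraries. At 2 months r was 0.349 over 56 libraries (permutation p = 0.0141, adjusted p = 0.0844). These libraries fall into separate sets in Mir486, at a boundary set after the data were examined. Within the sets r was 0.00193 in the 47 and -0.104 in the 9. At 10 months it was 0.314 (permutation p = 0.0983, adjusted p = 0.268). Mir144 and Mir486 had r of -0.0105 over all libraries of 2 months and 0.0519 in the 47. It was 0.114 at 6 months and -0.00274 at 10 months. The vessel members Mir126a and Mir143 had r of 0.201, 0.408 and 0.0734 at 2, 6 and 10 months (adjusted p of the permutation tests 0.422, 0.104 and 0.758). Mir143 and Mir451a had r of -0.237, 0.189 and -0.356 (adjusted p of the permutation tests 0.312, 0.589 and 0.104). When also centred on L number, their r at 10 months was -0.18.

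**Figure D5:**
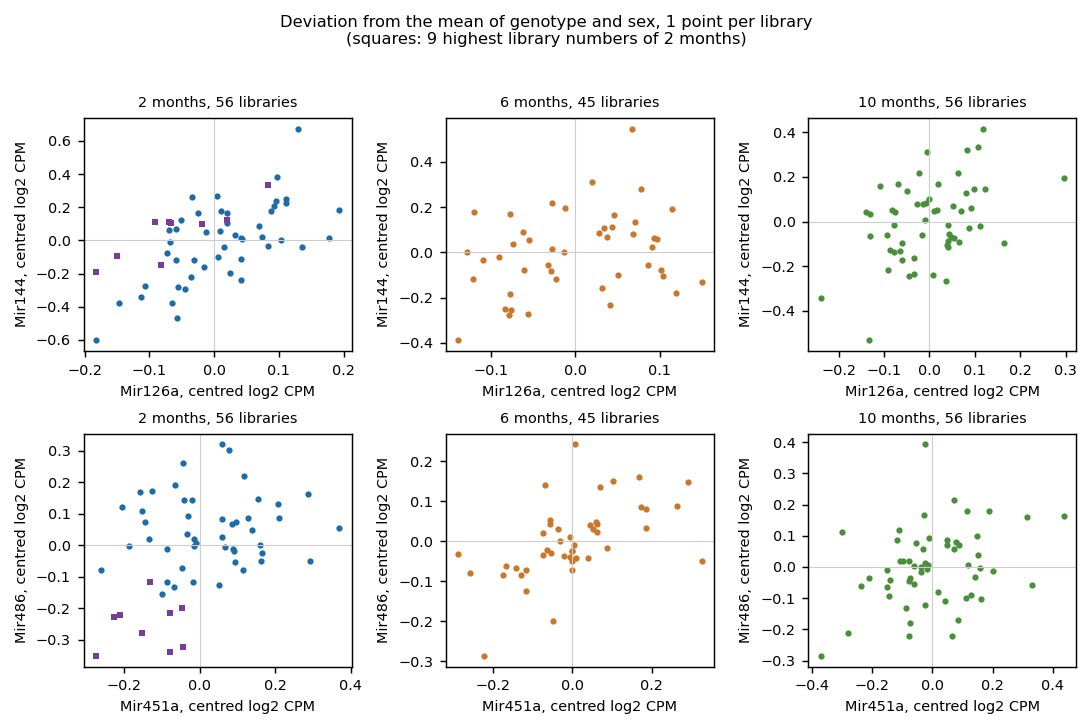
Centred log2 CPM (deviation from the mean of genotype and sex) of Mir144 against Mir126a (upper row) and of Mir486 against Mir451a (lower row) at 2, 6 and 10 months; 1 point per library, squares for the 9 libraries of 2 months that stand apart. Upper row r is 0.593, 0.276 and 0.429. Lower row r is 0.349, 0.55 and 0.314, and at 2 months the squares lie below 0 on the Mir486 axis.

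The members were also set against 4 microRNAs of other sources and the library total, 75 relations in all, of which 7 passed by permutation. The share of all transcripts with such relations was not counted. Mir145a, the partner of Mir143 in smooth muscle, correlated with Mir143 at 10 months (r = 0.436, permutation p = 0.00122, rho = 0.428, permutation p = 0.00258, adjusted p = 0.0229), and r was 0.537 at 6 months (permutation adjusted p = 0.0567) and 0.209 at 2 months (adjusted p = 0.607 by permutation). Without the lowest library of 10 months r was 0.523. Mir145a and Mir126a had r of 0.363 at 10 months (permutation adjusted p = 0.161), and 0.582 without that library (adjusted p = 0.00475 by permutation).

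Mir223, a microRNA of neutrophils and other myeloid cells, correlated at 10 months with Mir126a (r = 0.474, permutation p = 0.00012, rho = 0.531, permutation p = 8e-05, adjusted p = 0.0045) and with Mir144 (r = 0.419, permutation p = 0.0046, rho = 0.418, permutation p = 0.00538, adjusted p = 0.0493). Without the lowest library r was 0.524 and 0.443 (permutation adjusted p = 0.0045 and 0.0648). Mir122, the liver microRNA, correlated negatively with Mir451a at 10 months (r = -0.42, permutation p = 0.00267, rho = -0.383, permutation p = 0.011, adjusted p = 0.04), at a Mir122 level of 0.196 to 12.4 CPM (median 1.36). Mir126a correlated with the library total at 10 months (r = 0.537, permutation p = 0.00079, rho = 0.497, permutation p = 0.00073, adjusted p = 0.0197), and without the library of the lowest total r was 0.391 and did not pass (permutation adjusted p = 0.0949). The relations of Mir150 with Mir486 and with Mir451a at 2 months rest on the 9 libraries. Within the 47 r was -0.306 and -0.0488, and within the 9, not centred on genotype and sex, it was -0.279 and 0.303.

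By likeness over all libraries of 2 and 10 months, the members were seldom near each other among 397 ranked transcripts, and the values are a description without a test. The transcripts most like Mir126a were Mir369 (r = 0.546), Mir218-1 (0.5173) and Mir144 (0.5138). Those most like Mir144 were Mir3071 (0.6406), Mir142b (0.5679) and Mir126a. Most like Mir143 were Mir148a (0.5649), Mir199a-1 (0.5464) and Mir5099 (0.4974). For Mir451a they were Mir598 (0.5099), Mir129-1 (0.471) and Mir186 (0.4271), with Mir486 at rank 20 and Mir144 at rank 37. For Mir486 they were Mir107 (0.6857), Gm25301 (0.6455) and Mir331 (0.6121), with Mir451a at rank 55. At 6 months, over 45 libraries, r with Mir126a was 0.527 for Mir369, 0.4553 for Mir218-1 and 0.2765 for Mir144. With Mir144 it was 0.362 for Mir3071 and 0.0243 for Mir142b. With Mir143 it was 0.3683 for Mir148a, 0.6544 for Mir199a-1 and -0.0815 for Mir5099. With Mir451a it was 0.2119 for Mir598, 0.1665 for Mir129-1 and 0.2826 for Mir186. With Mir486 it was 0.5026 for Mir107, 0.6637 for Gm25301 and 0.1869 for Mir331. Part of the values of Mir486 at 2 months, such as 0.7589 with Mir107, includes the 9 libraries that stand apart.

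Other microRNAs of the same sources were read from fixed lists. Of the red-cell list 7 of 10 were measured, and between 2 and 10 months 3 were higher and 1 lower: Mir15a (0.45), Mir93 (0.29), Mir106b (0.16) and Mir363 (-0.43). These 4 of 7 compare with 71.5% of all transcripts passing in either direction, and the list's median was 0.051 beside 0.01 over all transcripts. With CAG length, Mir15a and Mir16-1, a pair from a single cluster that restrains cell division, rose at 10 months by 0.13 each per 100 CAG (edgeR adjusted p = 0.00666 and 0.0137). These are 2 of 7, where 6.6% of all transcripts passed. At 2 and at 6 months 0 of 7 passed, beside 0% and 7.2% of all transcripts. Several of this list are made in neurons as well, which the list does not separate.

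Of the vessel wall list 11 of 14 were measured, and with age 3 were higher, Mir23a (0.15), Mir27a (0.14) and Mir27b (0.084), and 2 lower, Mir145a (-0.11) and Mir130a (-0.25), with a median of 0.027. These 5 of 11 stand beside the same 71.5% of all transcripts. With CAG length 0 of 11 passed at each age, beside 0%, 7.2% and 6.6% of all transcripts at 2, 6 and 10 months. Of the white blood cell list 4 of 5 were measured, and Mir142b (0.074) and Mir155 (0.46) were higher at 10 months. The white blood cell list summed to 1528 to 4144 CPM at 2 months, 912 to 1305 CPM at 6 months without WT and 1720.4 to 2897 CPM at 10 months. In the liver list (4 of 5 measured) Mir192 was lower at 10 months (-0.21), and Mir122 had a median of 0.986 CPM at 2 months. In the choroid plexus list 3 of 4 were higher and 1 lower, and in the cortex neuron list 4 of 10 higher and 3 lower. The age calls of these lists too stand beside the 71.5% of all transcripts. With CAG length at 10 months, Mir132 (-0.18) and Mir128-2 (-0.10) of the neuron list fell, 2 of 10 beside 6.6% of all transcripts. In the white blood cell, liver and choroid plexus lists 0 passed at any age, beside the shares given above. The part of white blood cells, liver or choroid plexus RNA in the members' levels was not tested.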

How the data were processed

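The authors clipped single-end reads of strand-specific small RNA libraries, aligned them with STAR to mouse build mm10 and, by the methods, counted reads per gene with HTSeq. The deposited table holds the authors' estimated counts per transcript for 168 libraries, which are not whole for 48.1% of values above 0 (how such values arose is not given in the sources used here) but are whole for the members. Per the labels, each library belongs to 1 mouse of a genotype, age and sex. Library totals were 2041741 to 11646287, and counting error is given beside the SD where it matters.

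Counts were rounded, filtered with filterByExpr, scaled with TMM and fitted over all transcripts with edgeR 4.0.16 (quasi-likelihood F test, two-sided, robust) in R 4.3.3, with Benjamini-Hochberg adjustment at 0.05. Each age was fitted apart with CAG length (7 for WT, per 100 CAG) and sex, and library code at 6 months. For 6 and 10 months together, both Z values were added and divided by the square root of their number. Age was fitted over 2 and 10 months with genotype and sex. Log2 CPM used a prior count of 2, and correlations used 100000 permutations within genotype and sex, whose smallest p is 1e-05. Within the 9 libraries of 2 months that stand apart, values were permuted over all 9. At 6 months 45 of 48 libraries had another of their genotype, sex and code and entered the correlations. Fits and correlations were tested on simulated data.

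The members and lists were chosen with earlier results of these data known. Named are the members, listed microRNAs past the threshold, fixed partners and, for each member, the 3 transcripts of highest r among those with a mean of at least 10 counts. Alternatives were RLE scaling, the library total alone, DESeq2 1.42.0, other filters, samples and covariates, a prior count of 0.5 and a replicate block. Same-numbered mice correlated above 0.1 in 76 of 162, 44 of 120 and 51 of 162 pairs at 2, 6 and 10 months. The median r was 0.0796, 0.0217 and 0.0159. Mice of different numbers were not counted beside them, so these values do not decide whether the numbers are pairs. The main fits did not take them as pairs.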

Additional observations from a re-analysis of the deposited data

Results flagged for a closer look

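Among 105 groups of 8 libraries, 7 had a library far from the others by Dixon's test, where chance gives about 1 in 20 groups. Mir126a was 6685 CPM in Q20 Male 2 of 10 months, the library with the lowest total, against 8132 to 9002 CPM in the other mice of its group. Mir126a was 10555 CPM in WT Female 2 of 10 months, against 7845 to 8866 CPM. Mir143 was 16969 CPM in Q140 Female 2 of 2 months, against 10801 to 13657 CPM. Mir451a was 349.8 CPM in Q20 Female 1 of 2 months, against 236 to 279 CPM. Mir144 was 25.2 CPM in Q111 Male 2 of 2 months, against 34.6 to 42.4 CPM. Mir486 was 2881 CPM in Q140 Female 2 of 10 months, against 1893 to 2336 CPM, and 2500.3 CPM in WT Female 3 of 6 months, against 5368 to 7558 CPM.

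The WT libraries of 6 months, which entered no comparison, had a median Mir486 of 6291 CPM, and 7 of 8 lay above every Q20 library of that age (3112 to 3758 CPM). This difference was not tested by itself, and genotype and library set cannot be told apart in it.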

How the results depend on the processing

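Of 399 alternative values, 350 kept their direction and side of the threshold or, for a number of members or pairs called, stayed within 1.5 times of it. The number past the threshold changed as follows. With the 6-month WT libraries included it was 3 for CAG length at 6 months, 3 for genotype at 6 months and 3 in the meta-analysis. Without the library code it was 1 for CAG length at 6 months. For genotype at 6 months it was 0 with the library total alone, with every transcript of at least 1 count, with only microRNA features and with only LB libraries. For the mutants against controls it was 1 with DESeq2. With the library total alone it was 5 rather than 4 for age, and with RLE it was 3 rather than 4 for the co-varying pairs. Alternatives chosen after seeing the data changed these counts: age had 2 members within L number 7, the co-varying pairs were 3 when also centred on even or odd replicate number, and the partner relations had 4 without the libraries that stand apart.

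Other values changed sign, none of them past the threshold, and the cause was not tested. Without the Q175 libraries the CAG coefficients at 2 months were -0.018 for Mir126a, -0.036 for Mir143 and -0.021 for Mir144, that of Mir486 at 6 months was 0.06, and those at 10 months were 0.0076 for Mir451a, 0.043 for Mir144 and 0.026 for Mir486, while the meta-analysis Z was 0.67 for Mir143 and 1.34 for Mir486. Mir486 at 2 months had -0.0025 without the 9 libraries. Mir486 at 6 months had 0.015 with the library total, 0.0027 with only microRNA features, 0.012 without the code and 0.02 with only LB libraries, and in the meta-analysis 0.083 and 0.20 under the last 2. At 10 months Mir143 had -0.00065 with the library total and Mir451a 0.018 without the library of the lowest total. The age difference of Mir126a was 0.0072 with RLE, 0.0073 with DESeq2, 0.0082 with only microRNA features, 0.052 with only the 9 libraries, 0.021 within L number 7 and 0.0004 without the library of the lowest total.

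With a replicate block, CAG length passed for 0 members at each age and in the meta-analysis, as without it; for Mir143 at 6 months the coefficient was -0.12 (edgeR adjusted p = 0.102). Mir144, with 77 to 474 counts a library, is the member whose precision depth limits most.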

Other observations

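At 6 months Mir126a differed between even and odd replicate numbers, a split seen after the data were examined. It was higher in the even numbers in 12 of 12 combinations of genotype and sex, by 0.029 to 0.21 on the log2 scale (mean 0.13), with medians of 10912 and 9965 CPM over 24 libraries each. At 2 months it was higher in the even numbers in 3 of 14 combinations and at 10 months in 2 of 14. The other members at 6 months were higher in the even numbers in 8 of 12 combinations for Mir143, 9 of 12 for Mir144, 6 of 12 for Mir451a and 2 of 12 for Mir486. What the replicate number stands for is not given in the sources used here. With this split removed, Mir451a and Mir144 at 6 months had r = 0.74 over 34 libraries and no longer passed (permutation adjusted p = 0.138). This r is above the 0.566 over 45 libraries. Fewer libraries and smaller strata enter, so the lost call does not decide whether the correlation depends on the split. Mir451a and Mir486 had r = 0.707 and passed (permutation adjusted p = 0.0452).

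Among the 9 libraries of 2 months that stand apart, Mir486 and Mir122 had r = 0.942 (permutation p = 0.00193) and rho = 0.85 (permutation p = 0.00608), while in the other 47 r was -0.202 (permutation p = 0.243). Values of the 9 were not centred on genotype and sex, while those of the 47 were, so the 2 values are unlike measures. These subset relations were read after the data were examined, and no adjustment was made for their number. Mir122 was low in most libraries of 2 months, at 0.166 to 51.2 CPM with a median of 0.986 over 56 libraries.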
